A study of Homo sapiens with 4 samples.

Results

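Mucins and the secreted defence proteins of epithelia were followed in HCC1954 cells after knockdown of the palmitoyltransferase gene ZDHHC15, through the 10 genes MUC1, MUC4, MUC16, MUC20, MUC5AC, MUC5B, PIGR, LCN2, SLPI and WFDC2. They were found by symbol, 1 row each, among 58735 genes in the table of read counts, and 6 of the 10 passed the filter on low counts that left 15817 genes for testing. HCC1954 is an established HER2-positive human breast cancer line. All samples grew in RPMI-1640 with 10% fetal bovine serum and carried a GIPZ hairpin vector, which was scrambled in the 2 shCON samples and directed against ZDHHC15 in the 2 shZDHHC15 samples. The series text describes the knockdown as stable, whereas the sample protocol gives a Lipofectamine 3000 transfection and a harvest 36 h later, and the study's supplement adds that monoclonal cultures were screened. The sources do not say whether samples 1 and 2 of a group were separate cultures or separate hairpins, so the p-values measure the spread between these samples only, which may be technical.

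Mucins are large glycoproteins whose repeats carry dense O-linked sugars. MUC1, MUC4, MUC16 and MUC20 span the membrane of the apical cell surface, where they form a barrier and are in part shed, whereas MUC5AC and MUC5B are secreted and form the gel of mucus. PIGR, the polymeric immunoglobulin receptor, carries IgA across the epithelium and is released with it as secretory component. LCN2 (lipocalin 2) binds bacterial siderophores and so withholds iron, SLPI is an inhibitor of neutrophil elastase built of WAP domains, and WFDC2 (HE4) is a further secreted WAP-domain protein. Shed MUC1 and MUC16 are measured in serum as tumour markers.

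The sequences around the start sites of 3 members that rose are shown first, since they cover the largest change (PIGR), the largest change among the mucins (MUC1) and the most abundant transcript (LCN2). RefSeq windows on GRCh38.p14, from 250 bases before to 50 bases after a start site, were found for 6 of the 10 genes, namely MUC1, MUC4, MUC16, PIGR, LCN2 and WFDC2, with SLPI, MUC20, MUC5AC and MUC5B not matched. Capitals mark the letters of 6 motifs searched on both strands. These were AP-1 (TGANTCA), the interferon-gamma-activated site GAS (TTCNNNGAA), the core of the interferon-stimulated response element (GAAANNGAA), the TEAD site (GGAATG), the kappaB consensus and the TATA box (TATAAA). The windows lie at chr1:206946417-206946716 on the minus strand for PIGR, at chr1:155192866-155193165 on the minus strand for MUC1 and at chr9:128149203-128149502 on the plus strand for LCN2, each printed in the direction of transcription.
PIGR: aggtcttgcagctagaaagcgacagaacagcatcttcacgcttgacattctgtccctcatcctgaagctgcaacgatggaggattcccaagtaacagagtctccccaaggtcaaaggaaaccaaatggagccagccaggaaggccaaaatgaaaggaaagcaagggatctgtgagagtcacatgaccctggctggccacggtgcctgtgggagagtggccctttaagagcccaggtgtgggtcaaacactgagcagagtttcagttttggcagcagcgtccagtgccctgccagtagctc
MUC1: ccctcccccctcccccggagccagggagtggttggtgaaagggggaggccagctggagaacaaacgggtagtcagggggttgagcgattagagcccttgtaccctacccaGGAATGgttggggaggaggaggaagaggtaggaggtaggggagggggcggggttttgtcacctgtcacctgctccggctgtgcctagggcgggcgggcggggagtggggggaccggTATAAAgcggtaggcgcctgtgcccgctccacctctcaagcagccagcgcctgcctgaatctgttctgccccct
LCN2: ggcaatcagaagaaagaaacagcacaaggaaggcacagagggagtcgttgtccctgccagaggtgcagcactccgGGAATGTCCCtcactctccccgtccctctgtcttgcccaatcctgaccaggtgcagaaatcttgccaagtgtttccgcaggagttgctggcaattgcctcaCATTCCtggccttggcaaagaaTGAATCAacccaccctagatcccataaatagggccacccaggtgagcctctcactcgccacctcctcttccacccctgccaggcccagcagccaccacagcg

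The PIGR window held none of the 6 motifs, nor did that of WFDC2. With the start site counted as 0, the MUC1 window shown held a TATA box at -24 to -19 and a TEAD site at -140 to -135. RefSeq gives MUC1 a second start site nearby, from which the same letters lie at -30 to -25 and -146 to -141. The LCN2 window held an AP-1 site at -52 to -46, a TEAD site at -74 to -69 and, on overlapping bases from -175, a further TEAD site (to -170) and a kappaB match (to -166). Of 35116 RefSeq windows of the same length, 7.71% held the AP-1 letters, 7.66% the GAS letters, 8.11% the response element core, 14.0% the TEAD site, 11.3% the kappaB consensus and 11.5% the TATA box. The MUC4 window held the GAS and TEAD letters. The start sites of the LCN2 and MUC4 windows lie 382 and 348 bases after the first base of the counted gene. Both of these windows thus lie inside the gene as counted here. Both MUC16 windows have their start sites outside the gene as counted here, 29.1 and 84.4 kb before its first base, and the nearer one held AP-1 and kappaB letters. The matches are descriptions of letters in a window and not of bound sites.

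The libraries held between 17560982 and 19118704 counts, and a count of 0 allowed up to 3 counts, or between 0.153 and 0.178 CPM (read counts scaled to the TMM-normalised library size), a limit for counting error only. ZDHHC15 itself had 17617 and 15716 counts in shCON cells and no read in either shZDHHC15 sample, at least 6050-fold lower against the floor of 3 counts per library. Whether the hairpin alone left no read was not tested. ERBB2, the receptor gene amplified in HER2-positive cancers, stood at 5760 ± 241 CPM in shCON and 4876 ± 225 CPM in shZDHHC15 cells (SD, n = 2), EPCAM, the epithelial adhesion molecule, at 262 ± 15.3 and 206 ± 4.12 CPM, and the progesterone receptor gene PGR at 1 count or fewer in each sample. The oestrogen receptor gene ESR1 had 161 and 103 counts in shCON and 308 and 305 counts in shZDHHC15 cells. Most of the line markers were called lower in shZDHHC15 cells, as given below. Of 20 leukocyte, stromal and endothelial markers, 7 had 0 counts in all samples, including the neutrophil genes MPO and ELANE, and PTPRC (CD45) had between 1 and 4 counts. The summed level of the 20 markers was nevertheless 10.9 and 11.9 CPM in shCON and 49.8 and 31.6 CPM in shZDHHC15 cells, mainly through PECAM1, and all 3 tested markers (PECAM1, CD14 and COL1A1) were higher. The part of this shift in the results below was not tested. In RNA from whole cultures, fewer cells of a kind and less RNA per cell cannot be told apart.

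All 6 members that could be tested were higher in shZDHHC15 than in shCON cells, and in each of them both shZDHHC15 samples lay above both shCON samples. Their rises at an adjusted p under 0.05 by edgeR's quasi-likelihood test (Benjamini-Hochberg over all genes) compare with 21.7% of all tested genes called higher and 20.3% called lower. PIGR, MUC1, MUC16 and MUC20 also passed a log2 fold change of 1, as did 7.51% of all tested genes. A lack of overlap in this direction was found for 37.2% of all tested genes. The median log2 fold change was 1.66 over the 6 genes and 0.02 over all tested genes. The members were chosen with earlier results of these data known, so these comparisons with all tested genes are descriptions only. Of the 6, none depended on the shZDHHC15 group to pass the filter, since the lowest shCON count was 28. An exact permutation of the labels of 2 against 2 samples reaches no two-sided p smaller than 0.333, and the adjusted p-values borrow their spread from all genes.

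Among the membrane mucins, MUC1 (ENSG00000185499, chromosome 1, 155185824 to 155192916, minus strand) received 214 and 135 counts in shCON and 887 and 658 counts in shZDHHC15 cells. Its level of 9.87 ± 2.64 CPM rose to 40.6 ± 9.98 CPM (SD, n = 2), which was 2.03 on the log2 scale with SE 0.191 (adjusted p = 1.08e-06 by edgeR). The shCON samples differed from each other, as did the shZDHHC15 samples, but the smallest ratio of a shZDHHC15 to a shCON sample was still 2.86 and the largest 5.95. The annotation gives MUC1 11 merged exons in 29 transcripts, 48 bases of which overlap an exon of AL713999.1 on the same strand.

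MUC16 (ENSG00000181143, chromosome 19, 8848844 to 8981342, minus strand), the longest gene of the group in merged exons (43830 bases), received 177 and 111 counts in shCON and 594 and 451 counts in shZDHHC15 cells. Its level of 8.14 ± 2.21 CPM rose to 27.4 ± 6.31 CPM (SD, n = 2), which was 1.74 on the log2 scale with SE 0.195 (adjusted p = 6.49e-06 by edgeR). As with MUC1, sample 1 was the higher of the pair in each group, and the groups did not overlap (ratios between 2.37 and 4.85).

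MUC20 (ENSG00000176945, chromosome 3, 195720882 to 195741123, plus strand) received 91 and 95 counts in shCON and 299 and 309 counts in shZDHHC15 cells. Its replicates lay closest together among the mucins, at 5.31 ± 0.453 CPM in shCON and 15.9 ± 0.224 CPM in shZDHHC15 cells (SD, n = 2), and the gene rose by 1.58 on the log2 scale with SE 0.17 (adjusted p = 4.26e-06 by edgeR). The reads of this gene are hard to assign, because 1820 bases of its exons overlap MUC20-OT1 on the same strand and a stretch of 1169 bases is 97.7% identical to the pseudogene MUC20P1. Both of these rose as well, MUC20-OT1 from 265 and 256 to 551 and 604 counts (log2 fold change 1.02, adjusted p = 1.91e-05) and MUC20P1 from 39 and 31 to 147 and 113 counts (1.77, adjusted p = 9.35e-05, both by edgeR). With the 3 genes summed, in an alternative chosen after seeing the data, the log2 fold change was 1.26 (adjusted p = 7.68e-07).

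MUC4 (ENSG00000145113, chromosome 3, 195746765 to 195812277), the membrane mucin that binds ERBB2 and lies next to MUC20, had 8 and 3 counts in shCON and 13 and 8 counts in shZDHHC15 cells and did not pass the filter. The samples overlapped. The pooled ratio was 1.75, with a 95% counting interval of 0.807 to 4.02, so that a change was not detectable at this depth.

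The gel-forming mucins stood near the floor. MUC5B (ENSG00000117983, chromosome 11, 1223066 to 1262172) received 2 and 0 counts in shCON and 22 and 6 counts in shZDHHC15 cells, a pooled ratio of 12.8 with a 95% counting interval of 3.24 to 111. Most of these reads came from shZDHHC15 sample 1, and the gene, whose exons overlap the antisense gene MUC5B-AS1, was too low for the filter. With no filter its adjusted p was 0.0844. MUC5AC (ENSG00000215182, chromosome 11, 1157953 to 1201138) had no read in shCON and 3 and 2 reads in shZDHHC15 cells, all at or under the floor, and no fold change is given.

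**Figure D1:**
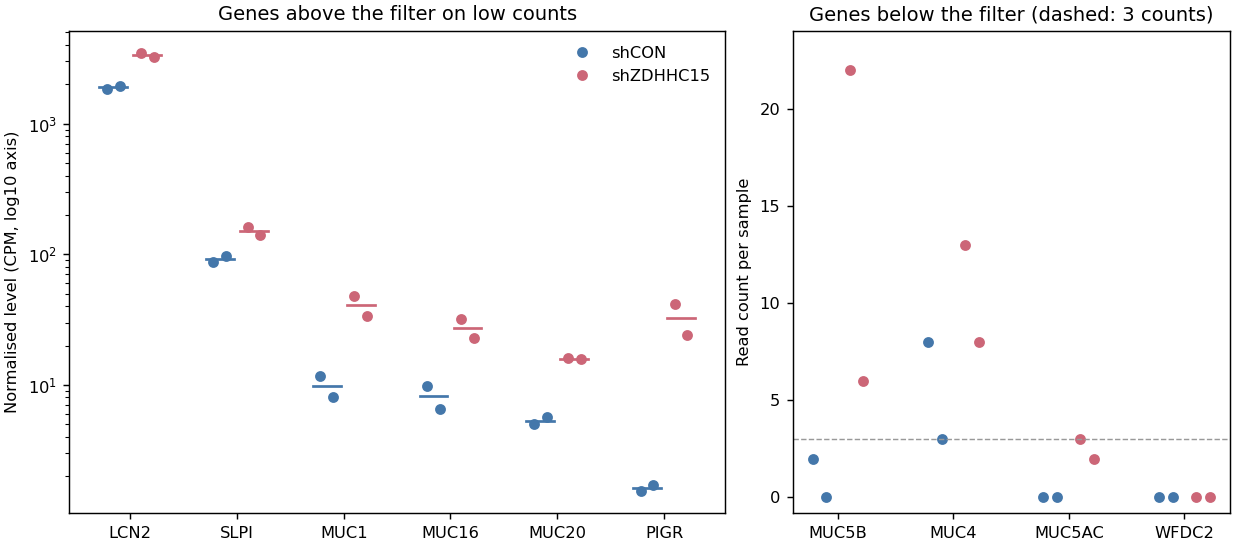
Levels of the 10 genes in each sample, with points for single samples and bars for group means (n = 2 per group). Left, CPM on a log10 axis for the 6 tested genes, where both shZDHHC15 points lie above both shCON points; right, read counts of the 4 genes below the filter, where the highest value is 22 counts of MUC5B.

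The largest change of the group was that of the IgA transporter. PIGR (ENSG00000162896, chromosome 1, 206928518 to 206946466, minus strand) received 28 and 29 counts in shCON and 774 and 471 counts in shZDHHC15 cells. Its level went from 1.63 ± 0.13 to 32.8 ± 12.4 CPM (SD, n = 2), a 20.1-fold rise with a 95% interval of 13 to 31 (4.33 on the log2 scale with SE 0.294, adjusted p = 3.4e-08 by edgeR). The interval did not overlap that of any other tested member. The shZDHHC15 samples lay further apart than the shCON samples, and the ratios between single samples ran from 14.0 to 27.1. JCHAIN, the joining chain of the IgA that the receptor carries, had 0 counts in all 4 samples.

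LCN2 (ENSG00000148346, chromosome 9, 128149071 to 128153455, plus strand) was the most abundant member in every sample. It received 33603 and 33021 counts in shCON and 64630 and 64216 counts in shZDHHC15 cells, which is 1900 ± 80.9 and 3371 ± 141 CPM (SD, n = 2). The rise was 1.77-fold, with a 95% interval of 1.56 to 2.01 (0.83 on the log2 scale with SE 0.0853, adjusted p = 2.84e-06 by edgeR). Per kilobase of exon, LCN2 ranked 18 in both shCON samples and 7 and 9 in the shZDHHC15 samples among the 15817 tested genes.

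SLPI (ENSG00000124107, chromosome 20, 45252239 to 45254564, minus strand) received 1600 and 1635 counts in shCON and 3035 and 2750 counts in shZDHHC15 cells. Its level of 92.3 ± 6.48 CPM rose to 152 ± 16.2 CPM (SD, n = 2), 1.64-fold with a 95% interval of 1.41 to 1.92 (0.71 on the log2 scale with SE 0.105, adjusted p = 7.85e-05 by edgeR). This was the smallest rise of the 6, and its interval overlapped that of LCN2. WFDC2 (ENSG00000101443, chromosome 20, 45469706 to 45481532), in the same gene cluster as SLPI, received 0 counts in all 4 samples, so a level above the floor was not detected.

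**Figure D2:**
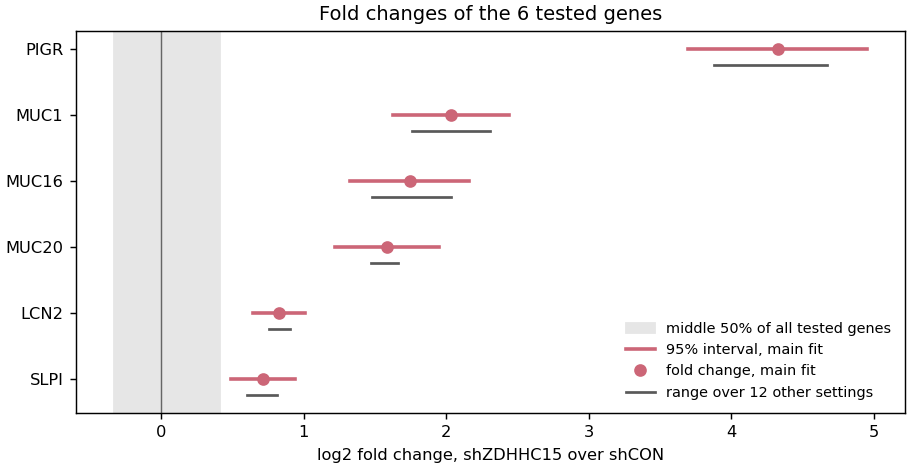
Log2 fold changes of the 6 tested genes, shZDHHC15 over shCON, with 95% intervals of the fit and, beneath, the range over 12 other settings. All lie to the right of the grey band, which spans the middle 50% of all tested genes (-0.34 to 0.41), from 0.71 for SLPI to 4.33 for PIGR.

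Levels were compared between genes per kilobase of exon. In shCON cells the order was LCN2 (1153 and 1225 CPM per kb), SLPI (147 and 163), MUC1 (2.49 and 1.70), MUC20 (1.18 and 1.33), PIGR (0.351 and 0.393) and MUC16 (0.222 and 0.150), with no overlap between neighbours. MUC4, MUC5B and MUC5AC stood below these, at or under 0.0206 CPM per kb in the shCON samples. In shZDHHC15 cells PIGR, at 9.50 and 5.48 CPM per kb, stood above MUC20 (3.78 and 3.71) and overlapped MUC1 (10.1 and 7.11). MUC4 (0.0327 and 0.0191 CPM per kb) and MUC5B (0.0635 and 0.0164) overlapped as well. LCN2 at 2172 and 2047 and SLPI at 274 and 235 CPM per kb headed the order, and MUC16 was the lowest of the tested members, at 0.728 and 0.524.

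The other mucins and mucin-like genes mostly fell below the filter. Of 17 listed, 6 were tested, with 2 called higher and 1 called lower and a median of 0.34 on the log2 scale. MUC15, a membrane mucin, went from 2 and 0 to 21 and 15 counts (ratio 16.5, 95% counting interval 4.25 to 142, adjusted p = 0.00169 by edgeR), and it passed the filter only through the shZDHHC15 samples. CD164 (endolyn), a sialomucin, rose from 118 ± 7.15 to 193 ± 17.9 CPM (SD, n = 2; log2 fold change 0.71, adjusted p = 5.6e-05), whereas MCAM, an adhesion molecule also called MUC18, fell by 0.81 (adjusted p = 5.46e-04). MUC3A had a log2 fold change of 0.31 (adjusted p = 0.271), PODXL one of 0.36 (adjusted p = 0.0745) and OVGP1 one of -0.06 (adjusted p = 0.925).

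The enzymes that build O-linked sugars on mucins are the next group. Of 30 listed, 19 were tested, with 6 higher, 2 lower and 11 past neither side of the threshold, and a median log2 fold change of 0.15. The largest rises were those of B3GNT3, which extends core 1 chains (1.49 on the log2 scale with SE 0.332, adjusted p = 0.0023), and of the core 2 branching enzyme GCNT1, from 53.3 ± 5.50 to 113 ± 13.3 CPM (SD, n = 2; log2 fold change 1.08, adjusted p = 3.66e-06 by edgeR). Both lower calls were small, GALNT12 at -0.49 (adjusted p = 0.0494) and the core 1 synthase C1GALT1 at -0.36 (adjusted p = 0.0277), and the alternatives that ended them numbered 8 and 6 of 12. The lower calls were 0 without shCON sample 1 or without either of the shZDHHC15 samples, each left out in turn, and 1 without shCON sample 2. C1GALT1C1, the chaperone of that synthase, was called higher at 0.38 (adjusted p = 0.0469), which 7 of 12 alternatives ended. The initiating transferases GALNT1, GALNT2 and GALNT3 had log2 fold changes between 0.01 and 0.02.

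Genes listed for goblet and mucous cells went both ways. Of 19 listed, 9 were tested, with 4 higher, 1 lower and a median of 0.05, which was 0.88 over the 8 genes with at least 10 counts in every sample. The 4 that rose were the surface protein gene CLCA2, from 79 and 67 to 568 and 407 counts (2.62 on the log2 scale with SE 0.211, adjusted p = 2.08e-07 by edgeR), FCGBP, a mucus protein that binds IgG Fc, by 2.37 (adjusted p = 5.37e-05), the mucin-folding disulfide isomerase AGR2 by 2.10 (adjusted p = 1.22e-06) and BPIFB1 by 1.69 (adjusted p = 2.79e-04). Among the transcription factors, SPDEF, a driver of goblet differentiation, had 614 and 701 counts in shCON and 725 and 717 in shZDHHC15 cells (log2 fold change 0.01, adjusted p = 0.977), FOXA1 had a log2 fold change of 0.05 (adjusted p = 0.68), and KLF4 fell by 0.70 (adjusted p = 1.22e-04). TFF3, the trefoil peptide of goblet cells, had 0 counts in all samples, and CLCA1 had at most 1 count in a sample. Both are among 7 of the 19 listed genes that had at most 3 counts in every sample.

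Other WAP-domain and antimicrobial genes stand beside SLPI and LCN2 in innate defence. Of 20 listed, 8 were tested, with 4 higher, 0 lower and a median log2 fold change of 1.91, but 5 of the 8 (DEFB4A, BPIFA1, PGLYRP4, DEFB1 and WFDC10B) passed the filter only through the shZDHHC15 samples. With at least 10 counts asked of every sample, 3 genes were left, 1 of them called higher, and their median was 0.08. PI3 (elafin), a further elastase inhibitor, rose from 609 and 631 to 4470 and 3819 counts, or 35.4 ± 2.83 to 217 ± 32.2 CPM (SD, n = 2; 2.62 on the log2 scale with SE 0.121, adjusted p = 4.17e-10 by edgeR). The defensin gene DEFB4A rose from 2 and 5 to 34 and 57 counts (3.53, adjusted p = 1.3e-04), and PGLYRP4, a peptidoglycan recognition protein, by 2.59 (adjusted p = 6.29e-05). BPIFA1 went from 3 and 0 to 30 and 13 counts (ratio 13.2, 95% counting interval 4.21 to 66.3, adjusted p = 0.00323). WFDC3 (0.07, adjusted p = 0.821), WFDC10B (0.18, adjusted p = 0.822) and RNASE7 (0.01, adjusted p = 0.97) did not pass, nor did DEFB1 at 1.24 (adjusted p = 0.0722), and LTF and LYZ, which encode lactoferrin and lysozyme, had at most 1 count in a sample.

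Of 15 mammary secretory products, 6 were tested, with 5 higher, 0 lower and a median of 1.88. XDH, the xanthine oxidoreductase of milk fat globules, rose from 493 and 415 to 3652 and 3164 counts (2.79 on the log2 scale with SE 0.121, adjusted p = 2.21e-10 by edgeR). PIP, prolactin-induced protein, rose from 4 and 3 to 76 and 43 counts (3.92, adjusted p = 5.57e-05), having passed the filter only through the latter, AZGP1 by 2.23 (adjusted p = 6.8e-07) and the prolactin receptor gene PRLR by 1.53 (adjusted p = 1.51e-05). The milk protein genes LALBA and CSN2 had at most 1 count in any sample. FOLR1 had a log2 fold change of -0.39 (adjusted p = 0.326).

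A list of genes for proteins that bind, shed or traffic the members followed. Of 20 listed, 17 were tested, with 6 higher, 1 lower and a median of 0.15. Without shZDHHC15 sample 1 the higher calls were 3, and the lower calls were 3 without shCON sample 1 and 0 without shCON sample 2. EGFR rose by 0.74 (adjusted p = 3.99e-05), and ADAM17 and ADAM10, proteases that release membrane proteins, rose by 0.73 (adjusted p = 1.35e-04) and 0.56 (adjusted p = 7.59e-04). ERBB2, the partner of MUC4, was called lower at -0.24 (adjusted p = 0.0332), which 5 of 12 alternatives ended, among them leaving out shCON sample 2 or either shZDHHC15 sample (adjusted p up to 0.276). LGALS3, the galectin that binds MUC1 sugars, had a log2 fold change of -0.11 (adjusted p = 0.357), and the vesicle genes RAB11A, RAB25 and VAMP8 lay between -0.09 and 0.03.

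Markers of the line itself went mostly the other way. Of 11 listed, 10 were tested, with 7 lower and 2 higher, and a median of -0.37. With library size alone the lower calls were 6 and the higher calls 2, and under DESeq2 they were 7 and 1. EPCAM was called lower at -0.35 (adjusted p = 0.00608 by edgeR), and 1 of 12 alternatives ended the call. KRT8, a keratin of simple epithelia, fell from 6059 ± 401 to 1969 ± 163 CPM (SD, n = 2; log2 fold change -1.62, adjusted p = 4.86e-09 by edgeR), and its partner KRT18 fell by 1.58 (adjusted p = 7.74e-09). KRT7 fell by 0.99 (adjusted p = 1.02e-06), the tight junction gene CLDN4 by 0.74 (adjusted p = 3.42e-05) and GRB7, amplified with ERBB2, by 0.39 (adjusted p = 0.00178), while KRT19 was higher by 0.44 (adjusted p = 0.0115), a call that ended under DESeq2 and without shZDHHC15 sample 1 (adjusted p up to 0.0819). CDH1, which encodes E-cadherin, had a log2 fold change of -0.05 (adjusted p = 0.706), while ESR1, the oestrogen receptor gene, rose from 161 and 103 to 308 and 305 counts (1.09, adjusted p = 2.13e-04). Of the 3 tested leukocyte and stromal markers, PECAM1 rose by 2.91 (adjusted p = 5.44e-07) from 75 and 56 to 666 and 405 counts, CD14 was higher by 1.61 (adjusted p = 0.0158), which 3 of 11 alternatives ended, among them leaving out shCON sample 2 or shZDHHC15 sample 1 (adjusted p up to 0.151), and COL1A1 by 0.65 (adjusted p = 0.0232), which 4 of 12 ended, among them leaving out shCON sample 1 or shZDHHC15 sample 1 (adjusted p up to 0.257). CD14 passed the filter only through the shZDHHC15 samples, and without shZDHHC15 sample 1 the list had 1 call.

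**Figure D3:**
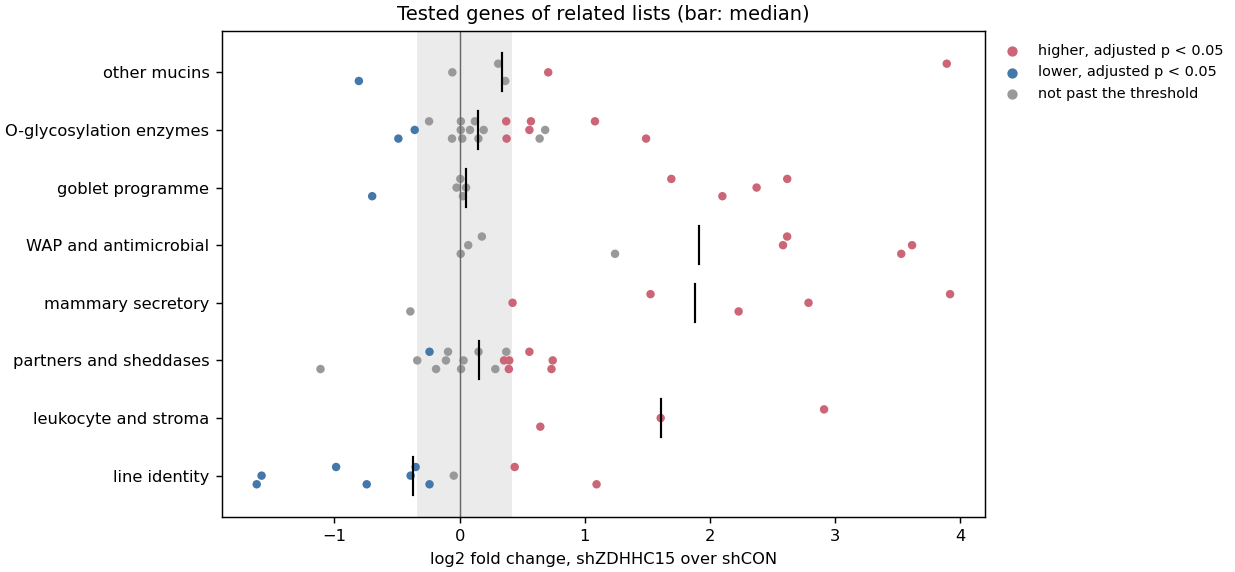
Log2 fold changes of the tested genes in the 8 related lists, one point per gene, coloured by call at an adjusted p under 0.05, with a bar at each list's median and a grey band for the middle 50% of all tested genes. The medians of the WAP and antimicrobial list (1.91), the mammary secretory list (1.88) and the leukocyte and stromal list (1.61) lie outside the band on the higher side, and the line identity list (-0.37) lies on the lower side. In the WAP, mammary and leukocyte lists, 5 of 8, 1 of 6 and 1 of 3 tested genes passed the filter through shZDHHC15 only. With at least 10 counts in every sample their medians were 0.08, 1.54 and 1.79, over 3, 5 and 2 genes.

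Several members sit in gene clusters, and the genes within 250 kb of a member were read from the same fit. Of those named here, APOD, IL19 and ADAMTS10 passed the filter only through the shZDHHC15 samples, and MATN4 and C4BPB only through the shCON samples. Counted once and without the members, 92 tested neighbours held 27 higher and 15 lower genes, with a median log2 fold change of 0.12. Of all tested genes, 21.7% were called higher and 20.3% lower. The 73 coding neighbours held 18 higher and 15 lower genes. Among the others were MUC20-OT1 and MUC20P1, which have overlapping or near-identical bases with MUC20. Around MUC20 and MUC4 on chromosome 3, beside MUC20-OT1 and MUC20P1, APOD (apolipoprotein D) went from 1 and 3 to 12 and 12 counts (ratio 5.51, 95% counting interval 1.89 to 21.8, adjusted p = 0.0164), a call that ended without shCON sample 1, where the adjusted p was 0.18, and TFRC, the transferrin receptor gene, was higher by 0.29 (adjusted p = 0.0258), which 4 of 12 alternatives ended, among them leaving out shCON sample 2 or shZDHHC15 sample 1 (adjusted p up to 0.363). TNK2 had a log2 fold change of 0.01 (adjusted p = 0.975). Of the genes flanking MUC5AC and MUC5B on chromosome 11, TOLLIP, 12.2 kb from MUC5B, did not pass (-0.01, adjusted p = 0.971), BRSK2 was higher by 0.96 (adjusted p = 0.00424) and MOB2 lower by 0.52 (adjusted p = 0.0074, but 0.055 without shCON sample 2). ADAMTS10, a protease gene 238.1 kb from MUC16, rose from 8 and 4 to 31 and 43 counts (2.48, adjusted p = 7.49e-04).

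On chromosome 1, PIGR lies among immune genes that went both ways. FCMR, the IgM receptor gene 5.3 kb away, had 158 and 173 counts in shCON and 135 and 161 counts in shZDHHC15 cells (log2 fold change -0.29, adjusted p = 0.217). The cytokine gene IL24, 24.4 kb away, fell by 1.41 (adjusted p = 9.57e-07), whereas IL19, 85.5 kb away, rose from 5 and 4 to 61 and 88 counts (3.89, adjusted p = 8.06e-06) and IL20 by 0.91 (adjusted p = 0.0062), a call that ended under DESeq2 and without shZDHHC15 sample 2 (adjusted p up to 0.061). C4BPB, which encodes a chain of the complement inhibitor C4b-binding protein, fell by 2.91 (adjusted p = 1.54e-04), C1orf116 by 0.60 (adjusted p = 2.81e-04) and the kinase gene MAPKAPK2 by 0.53 (adjusted p = 3.07e-04). MUC1 had 33 tested neighbours, of which 9 were higher and 4 lower. Its 27 coding neighbours held 6 higher and 4 lower genes, beside 21.7% and 20.3% of all tested genes. Coding genes called near it included MTX1 at -0.41 (adjusted p = 0.0122), SCAMP3 at -0.35 (adjusted p = 0.00927), the channel gene HCN3 at 0.89 (adjusted p = 9.13e-04), FDPS at 0.38 (adjusted p = 0.00658) and ASH1L at 0.86 (adjusted p = 7.07e-04). Without shZDHHC15 sample 1 the calls of SCAMP3 (adjusted p = 0.175) and FDPS (adjusted p = 0.0904) ended, and that of MTX1 ended when either shZDHHC15 sample was left out (adjusted p up to 0.0703).

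In the WAP cluster of chromosome 20, PI3 (75.7 kb from SLPI) was the only neighbour of SLPI called higher, and MATN4, which encodes a matrix protein, fell from 18 and 27 to 4 and 6 counts (-2.27, adjusted p = 0.0039). The remaining 6 of 8 tested neighbours did not pass, including SDC4 at -0.13 (adjusted p = 0.345). LCN2 had 20 tested neighbours on chromosome 9, 7 of them higher and 5 lower. Its 16 coding neighbours held 5 higher and 5 lower genes, again beside 21.7% and 20.3% of all tested genes. C9orf16, 6.8 kb away, rose by 0.51 (adjusted p = 0.00114), DNM1 by 1.34 (adjusted p = 0.00112) and GOLGA2 by 0.36 (adjusted p = 0.00788). SLC25A25 fell by 0.38 (adjusted p = 0.00806) and SWI5 by 0.62 (adjusted p = 0.00131), and PTGES2 was higher by 0.30 (adjusted p = 0.0154), which 4 of 12 alternatives ended, among them leaving out shCON sample 1 or either shZDHHC15 sample (adjusted p up to 0.167). Without shZDHHC15 sample 1 the calls of SLC25A25 (adjusted p = 0.13) and GOLGA2 (adjusted p = 0.0912) ended as well.

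**Figure D4:**
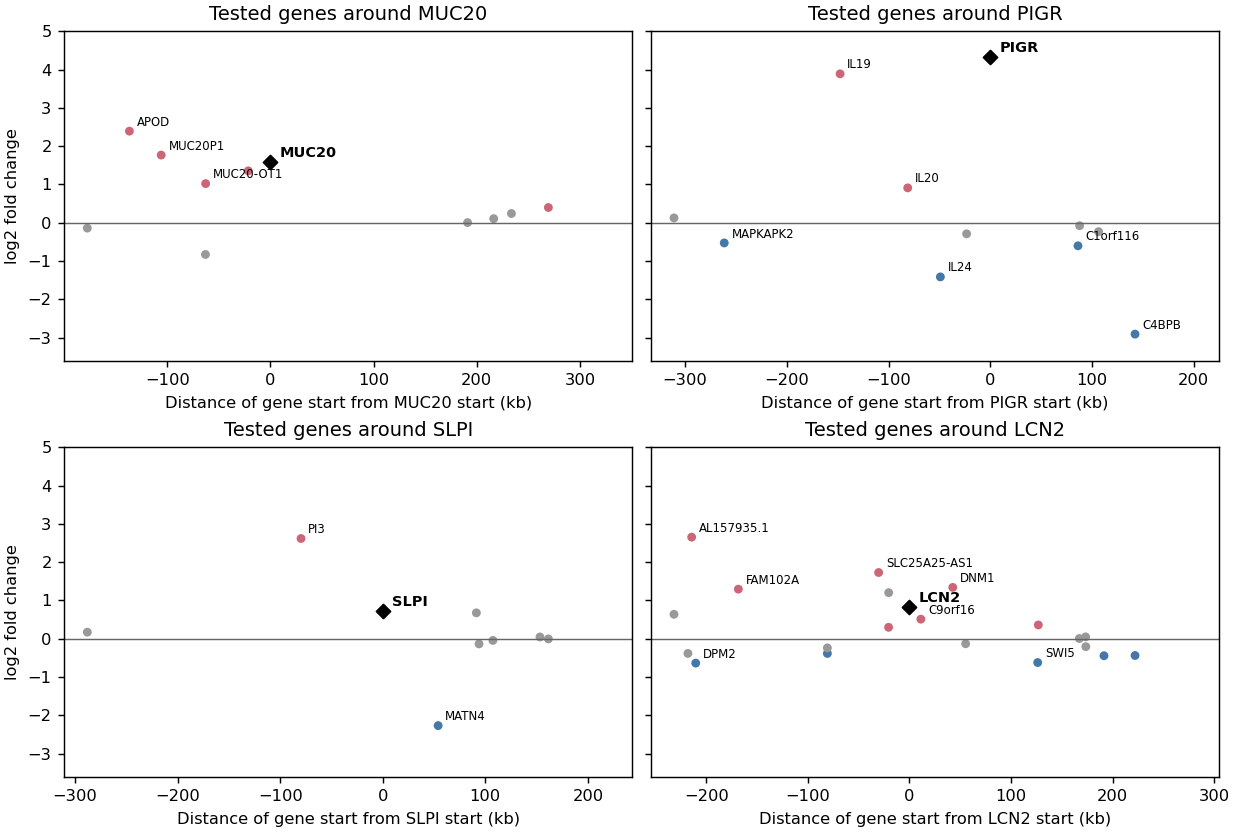
Log2 fold change of tested genes within 250 kb of MUC20, PIGR, SLPI and LCN2 (black diamonds), against the distance of each gene's start from that of the member in kb, with red for higher, blue for lower and grey for not past an adjusted p of 0.05. Neighbours of PIGR run from -2.91 (C4BPB) to 3.89 (IL19), and around SLPI only PI3 (2.62) is higher. C4BPB passed the filter only through the shCON samples and IL19 only through the shZDHHC15 samples.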

How the data were processed

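RNA of 2 shCON and 2 shZDHHC15 samples of HCC1954 cells was sequenced from NEBNext Ultra libraries. The authors deposited raw read counts per gene, not normalized; the submitters' processing notes name HISAT2, StringTie, SAMtools and hg38, while versions, the counting tool and use of strand are not given in the sources used here. All 58735 gene identifiers, spans and exon lengths matched GENCODE release 29 (GRCh38). Replicates differed by more than sampling noise (chi-square per degree of freedom 8.32 for shCON and 6.79 for shZDHHC15). Genes were filtered with filterByExpr and scaled by TMM, and the quasi-likelihood F test of edgeR 4.0.16 (glmQLFit in its current form, with limma 3.58.1 under R 4.3.3) was applied, with p-values adjusted by Benjamini-Hochberg over 15817 genes at a threshold of 0.05. Standard errors came from the fold change and F. Untested members and genes with all shCON samples at or under 3 counts are given as pooled ratios with exact 95% binomial intervals, which cover counting error only. The fit was tested on simulated data with far fewer changed genes than were called here, so that test does not cover a change this wide. Alternatives were other scalings, filters and dispersions, DESeq2 1.42.0, a replicate block and leaving out each sample. The list medians over genes with at least 10 counts in every sample were added after seeing the data.

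Members and lists were chosen with earlier results of these data known. Named were all members, ZDHHC15, the 2 largest rises and 2 largest falls past the threshold of each list, all tested genes of the other-mucin and WAP lists, the line markers, and called coding genes within 250 kb of a member, up to 6 per locus by distance. One gene that this rule names is not reported here. Genes named outside this rule, among them AGR2, BPIFB1, AZGP1, PRLR, ADAM10, C1GALT1C1, TFF3, LTF, LYZ, PTPRC, SPDEF, FOXA1, LGALS3, MUC20P1, TNK2, TOLLIP, FCMR and SDC4, were chosen after their values were seen. Exon overlaps came from the annotation, and near-identical stretches (at least 150 bases at 97% identity) from a search of its transcripts.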

Additional observations from a re-analysis of the deposited data

How the results depend on the processing

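Each of PIGR, MUC1, MUC16, MUC20, LCN2 and SLPI kept its direction and its call under all 12 alternatives, with the largest adjusted p at 0.00798 (SLPI). The log2 fold changes lay between 3.88 and 4.67 for PIGR, 1.76 and 2.31 for MUC1, 1.48 and 2.03 for MUC16, 1.47 and 1.66 for MUC20, 0.75 and 0.90 for LCN2 and 0.60 and 0.81 for SLPI. Where a sample was left out, the lone sample of its group was assumed to vary like the other group. Without a filter, 2282 genes in all were called higher in place of 3427, with 30168 genes tested. Same-numbered samples did not deviate together (r = 0.082 over 15817 genes, 1 correlation from 2 pairs), so the numbers are not taken as pairs; with the replicate block, the 6 members were again called higher, and PIGR had a log2 fold change of 4.32. Library size alone as scaling moved the median of all genes to 0.09 and the share of higher among called genes from 51.6% to 60.7%. MUC4, MUC5AC, MUC5B and WFDC2 did not pass the main filter, and WFDC2 had 0 counts in all 4 samples. Whether more depth would show a change was not tested.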

Other observations

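Some genes related to the mucins had too few counts for the filter, and their values are given without a test. MUC2, the gel-forming mucin of the intestine and a neighbour of MUC5AC on chromosome 11, had no read in shCON and 5 and 4 reads in shZDHHC15 cells. LRP2 (megalin), an endocytic receptor that takes up LCN2, went from 1 and 0 to 16 and 6 counts, a pooled ratio of 20.2 with a 95% counting interval of 3.26 to 833. GALNT16, an O-glycosylation transferase, had no read in shCON and 8 and 5 reads in shZDHHC15 cells. Others were lower, among them MSLN (mesothelin), which binds MUC16, with 9 and 10 counts in shCON and 4 and 0 in shZDHHC15 cells, ERN2, a stress sensor of mucous cells, with 4 and 5 against 0 and 1, and ST6GALNAC3, a sialyltransferase, with 8 and 7 against 4 and 3. Of the 56 untested genes in the 6 lists of secretory and mucin-related genes, 9 were higher and 8 lower without overlap between the groups. The share over all untested genes is not given here, and at such counts a lack of overlap can rest on 1 or 2 reads per sample. The genes named in this paragraph were singled out after their values were seen.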
